A study of Homo sapiens with 18 samples.

Results

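The genes described here are 10 noncoding host genes of small nucleolar RNAs (snoRNAs) that were chosen as a family known for transcripts of the 5′ terminal oligopyrimidine (TOP) type: GAS5, SNHG1, SNHG5, SNHG6, SNHG8, SNHG12, SNHG15, SNHG16, SNHG32 and ZFAS1. They were matched by symbol in a table of 45372 gene symbols, and all 10 were found. They were chosen by family, but with a measured value in view, the level of SNHG32 in MV4-11 cells after 24 h of drug, so the values of MV4-11 with and without the drug are given as a description with no test.

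RNA sequencing was performed on 18 libraries of the acute myeloid leukemia (AML) cell lines MV4-11 and THP1 (written THP-1 in the sample labels). Both carry a rearranged KMT2A gene. For either line, 3 libraries came from cells kept in the vehicle DMSO, 3 from cells exposed to 50 nM IACS-010759 (IACS), an inhibitor of mitochondrial complex I, for 8 h, and 3 from cells exposed to that dose for 24 h. The sources used here do not say whether the DMSO libraries were taken at 8 h or at 24 h, and 1 set of 3 DMSO libraries served per cell line as the control at 8 h and at 24 h. The study's methods call the 3 libraries of a group independent replicates. The RNA was sequenced to ask by what route the drug sensitizes such cells to inhibitors of MCL-1, an antiapoptotic protein.

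A snoRNA guides the chemical modification or the cleavage of ribosomal RNA, and most human snoRNAs are cut out of the introns of a longer host transcript. The spliced remainder of a noncoding host goes to the cytoplasm, where ribosomes engage its short reading frames and nonsense-mediated decay removes it, so such RNAs are known to build up when translation or decay is blocked. TOP transcripts begin with a C followed by an uninterrupted run of pyrimidines, a feature shared with the mRNAs of ribosomal proteins and translation factors, and their translation follows the activity of mTORC1 through the binding protein LARP1.

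All 10 genes are annotated as long noncoding RNAs (GENCODE release 44, GRCh38). SNHG32, which lies at chr6:31834608-31839766 on the plus strand and holds SNORD48 and SNORD52, has 1801 exonic bases. ZFAS1 lies at chr20:49278178-49299600 on the plus strand and holds SNORD12, SNORD12B and SNORD12C. SNHG1, at chr11:62851978-62855953 on the minus strand, holds 6 annotated snoRNAs, SNORD22, SNORD25, SNORD26, SNORD27, SNORD28 and SNORD30. GAS5, at chr1:173858559-173868882 on the minus strand, and SNHG12, at chr1:28578538-28583132 on the minus strand, are on the same chromosome. SNHG5 is at chr6:85650491-85678932 and SNHG15 at chr7:44983019-44986961, both on the minus strand. SNHG8 is at chr4:118278703-118285316 and SNHG16 at chr17:76557727-76670985, both on the plus strand.

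The first bases of the transcripts show how far the TOP name applies at the start sites in the reference. RefSeq promoter entries (GRCh38.p14) were matched for 8 of the 10 genes, and a TOP start was counted where the start site is a C and at least 4 further bases, each C or T, follow it on the gene's strand. In the windows printed here, 30 bases run from 10 bases before the start site, and the capitals mark the pyrimidine run that begins at the start site. The first 4 genes meet the count and the last pair begins with a C and a shorter run.
SNHG32: cattttagttCTTTTTgcgaagtgggctcg
ZFAS1: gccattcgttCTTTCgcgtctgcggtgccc
SNHG5: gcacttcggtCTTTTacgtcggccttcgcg
SNHG12: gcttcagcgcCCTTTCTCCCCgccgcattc
SNHG1: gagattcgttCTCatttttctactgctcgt
SNHG8: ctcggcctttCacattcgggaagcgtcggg
These windows are chr6:31834906-31834935 (plus) for SNHG32, chr20:49278632-49278661 (plus) for ZFAS1, chr6:85678714-85678743 (minus) for SNHG5, chr1:28581854-28581883 (minus) for SNHG12, chr11:62855866-62855895 (minus) for SNHG1 and chr4:118278752-118278781 (plus) for SNHG8.

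The run was longest in SNHG12, with 11 pyrimidines, followed by 6 in SNHG32, 5 in ZFAS1 and 5 in SNHG5. SNHG1 had 3 and SNHG8 had 1, and the entries of GAS5 and SNHG16 do not begin with a C. The RefSeq start site of GAS5 lies upstream of the gene's annotated span in GENCODE. Thus 4 of 8 genes (50%) had a TOP start, against 1104 of the 27305 promoter entries read (4.04%). The share was 68.3% of 63 cytosolic ribosomal protein genes and 78.6% of 14 other protein-coding TOP genes. It was 18.8% of 16 further noncoding snoRNA hosts. A C followed by 4 or more pyrimidines anywhere in the window was present in 6 of the 8 genes (75%), among them SNHG16 and SNHG8, and in 38.2% of all entries. The starts of SNHG6 and SNHG15 were not read. These counts depend on the annotated start, and start sites were not measured in these libraries.

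Both cell lines carried RNA of their labelled lineage. All 8 myeloid markers (PTPRC, SPI1, CD33, LYZ, CSF1R, ITGAM, CEBPA and MPO) averaged 1 TPM or more over the 9 libraries of each cell line (TPM is the length-corrected share of a gene in its library), with sums of 4290 to 7682 TPM in MV4-11 and 1135 to 1567 TPM in THP1. Among the genes listed as markers of other cells, PECAM1 averaged 18.2 TPM in MV4-11 and 61.1 TPM in THP1. KRT18 was above the level of 1 TPM in MV4-11 only. EPCAM, ALB, CD3E, MS4A1 and COL1A1 were under it in both. The reads recovered from the TPM of genes averaging 1 TPM or more came to 19900000 to 26500000 per library. Because TPM are shares, an RNA that takes more leaves less for the rest, and 5 abundant noncoding RNAs (RN7SK, RMRP, RPPH1, RN7SL1 and RN7SL2) took 39.6% to 60.1% of the summed TPM. In THP1 their share was 46.3%, 49.6% and 55.8% in the DMSO libraries and 54.4%, 51.4% and 60.1% after 24 h of IACS. Each change is given as deposited and, where it matters, after median-of-ratios scaling of the libraries.

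With DMSO, SNHG6 was the most abundant of the genes in MV4-11 on the TPM scale, which accounts for transcript length. The gene, at chr8:66920561-66926398 on the minus strand, was measured at 303.2, 288.5 and 325.0 TPM. SNHG16 (mean 114.5 ± 1.25 TPM, SD, n = 3), SNHG1 (109.2 ± 11.2), GAS5 (98.7 ± 7.87) and SNHG32 (95.2 ± 5.48) came next, and each overlapped its neighbour in this order. ZFAS1 (37.7 ± 2.14), SNHG15 (34.97 ± 2.05) and SNHG8 (34.4 ± 0.989) overlapped one another in the same way, above SNHG12 (29.2 ± 0.774) and SNHG5 (21.7 ± 1.77), which did not overlap. The 10 genes together made up 881.1 ± 27.3 TPM. The reads behind a gene in a library ranged from 550 for SNHG15 to 8346 for SNHG16, so counting error was at most 4.26%. TPM depend on the gene model used in the counting, and the lengths that gave whole reads ran from 1247 bases for SNHG6 to 8414 bases for SNHG5.

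In THP1 with DMSO, SNHG6 was again first (186.5 ± 28.4 TPM, SD, n = 3) and SNHG32 was second (152.1 ± 15.5). They lay apart by a narrow margin, with 162.6 TPM in the lowest SNHG6 library and 162.5 TPM in the highest SNHG32 library. GAS5 (93.9 ± 19.7), SNHG1 (70.5 ± 19.9) and SNHG16 (61.2 ± 5.83) followed, each overlapping the next, and SNHG5 (34.7 ± 5.41) stood alone. SNHG8 (22.1 ± 2.77), SNHG12 (21.0 ± 7.55), ZFAS1 (20.02 ± 1.80) and SNHG15 (16.5 ± 4.28) were lowest, each overlapping its neighbour. The sum was 678.4 ± 108 TPM.

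**Figure D1:**
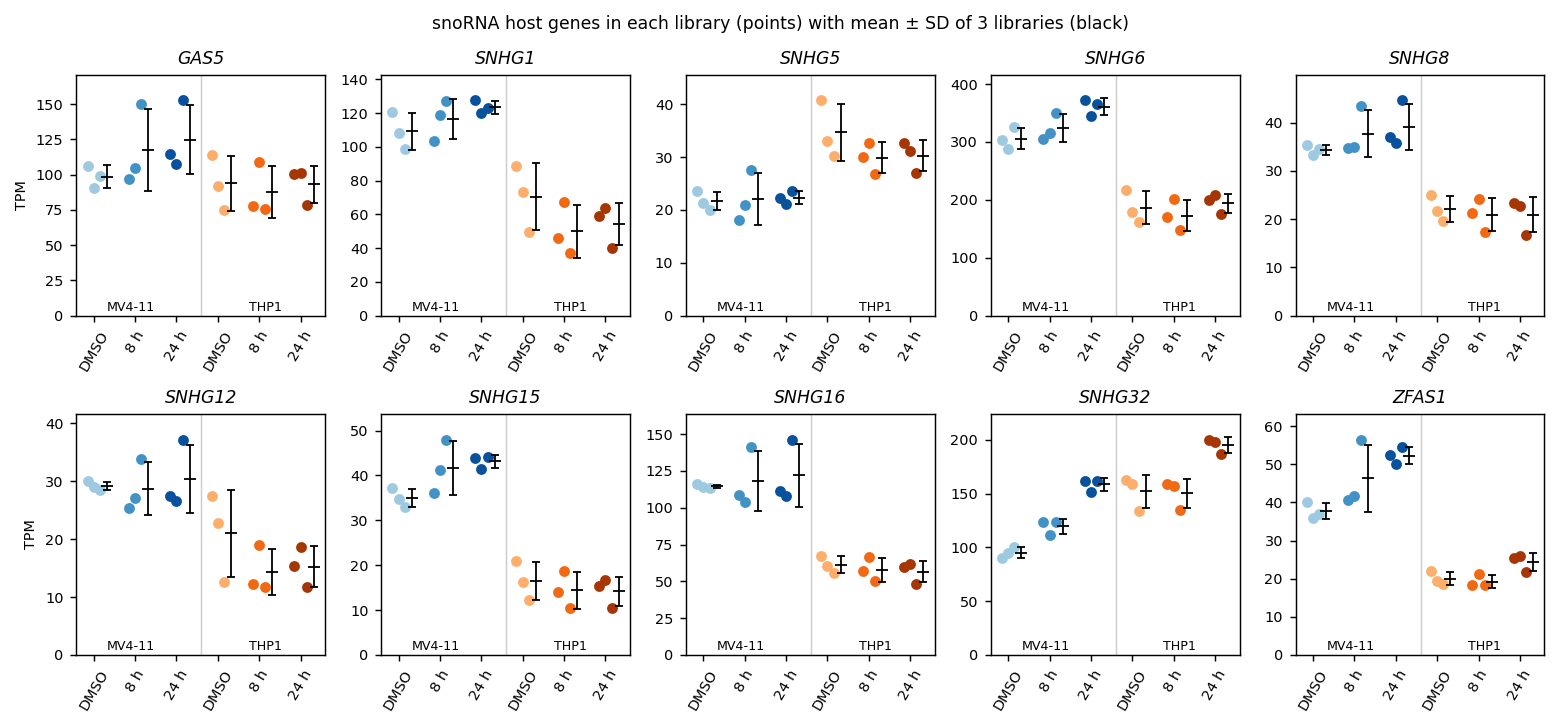
Each panel plots the TPM of 1 host gene (linear axis from 0) in the 6 groups, with 3 libraries per group as points and the mean ± SD in black. SNHG32 in THP1 after 24 h sat at 186.8 to 200.3 TPM, above its DMSO libraries, while most other genes in THP1 spread widely within each group.

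The cell lines were then compared with DMSO alone, a contrast in which SNHG32 is described and the other 9 genes are tested. THP1 held less of most of these RNAs. SNHG15, ZFAS1, SNHG16, SNHG6, SNHG1 and SNHG8 were lower than in MV4-11, SNHG5 was higher, and SNHG12 and GAS5 did not pass. A call here and below needs a Benjamini-Hochberg adjusted p under 0.05 in limma over all genes tested and a change of at least 1.5-fold, both on log2(TPM + 1). Of all 14117 genes tested, 36.9% were called in this comparison, 17.2% as lower in THP1 and 19.7% as higher.

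SNHG15 had the largest difference of the 9. Its DMSO libraries read 37.1, 34.8 and 33.0 TPM in MV4-11 and 20.9, 16.3 and 12.3 TPM in THP1. All 3 THP1 libraries were below all MV4-11 libraries, with a log2 fold change of -1.07 ± 0.20 (SE) and a limma adjusted p of 0.000199. SNHG16 was measured at 115.9, 113.9 and 113.6 TPM in MV4-11 and 67.2, 60.8 and 55.6 TPM in THP1, again without overlap (log2 fold change -0.90 ± 0.15, limma adjusted p 6.34e-05). ZFAS1 stood at 40.1, 35.9 and 37.1 TPM in MV4-11 and 22.1, 19.3 and 18.7 TPM in THP1. These groups also lay apart, and the log2 fold change was -0.88 ± 0.13 (limma adjusted p 1.46e-05).

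SNHG6 read 217.8, 179.0 and 162.6 TPM in THP1, below each MV4-11 library given above (log2 fold change -0.72 ± 0.13, limma adjusted p 0.000163). SNHG1 was at 120.9, 108.1 and 98.7 TPM in MV4-11 and 88.9, 73.0 and 49.4 TPM in THP1. The groups did not overlap, and THP1 spread more widely than MV4-11 (log2 fold change -0.66 ± 0.22, limma adjusted p 0.0166). SNHG8 had 35.3, 33.3 and 34.5 TPM in MV4-11 and 25.1, 21.7 and 19.6 TPM in THP1, a log2 fold change of -0.62 ± 0.15 (limma adjusted p 0.00232).

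SNHG5 went the other way. It was measured at 23.6, 21.4 and 20.1 TPM in MV4-11 and 40.7, 33.0 and 30.3 TPM in THP1, so that every THP1 library was higher (log2 fold change 0.65 ± 0.15, limma adjusted p 0.00127). For SNHG12 the values were 30.04, 28.9 and 28.6 TPM in MV4-11 and 27.4, 22.9 and 12.7 TPM in THP1. The groups did not overlap, and the third THP1 library lay far below the others. The change was under 1.5-fold and the test was not passed (log2 fold change -0.52 ± 0.24, limma adjusted p 0.0746). The limma adjusted p was 0.0101 with the replicate number as a block and 0.00663 with scaling, still under 1.5-fold. GAS5 overlapped, at 106.4, 90.7 and 99.0 TPM in MV4-11 and 114.3, 92.2 and 75.1 TPM in THP1 (log2 fold change -0.09 ± 0.20, limma adjusted p 0.733). SNHG32 was higher in each THP1 library, with 90.0, 94.8 and 100.9 TPM in MV4-11 and 162.5, 159.5 and 134.4 TPM in THP1 (log2 fold change 0.67 ± 0.11, not tested).

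In all, 6 of the 9 tested genes were called lower and 1 higher, against the 17.2% and 19.7% of all genes. The median over the 10 genes was -0.64, against 0.006 over all genes tested. The further noncoding snoRNA hosts showed the same direction, with 11 of 17 called lower, 0 called higher by limma and a median of -0.77. The largest of these was SNHG19, at a log2 fold change of -2.37 ± 0.19 (limma adjusted p 4.64e-09). Of 78 ribosomal protein genes 28 were called lower and 0 higher, with a median of -0.45. Of the 18 protein-coding snoRNA hosts 5 were called lower, including NOP56 (log2 fold change -1.38 ± 0.19), a core protein of box C/D snoRNPs. In bulk RNA, fewer cells with a transcript and less of it per cell cannot be told apart. The libraries of replicate 3 bore on this comparison: with replicate 3 of every group left out, a choice made after seeing the data, 4 of the 9 genes were called, and SNHG1, SNHG6 and SNHG8 fell short of the fold threshold at -0.4996, -0.5807 and -0.5374.

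**Figure D2:**
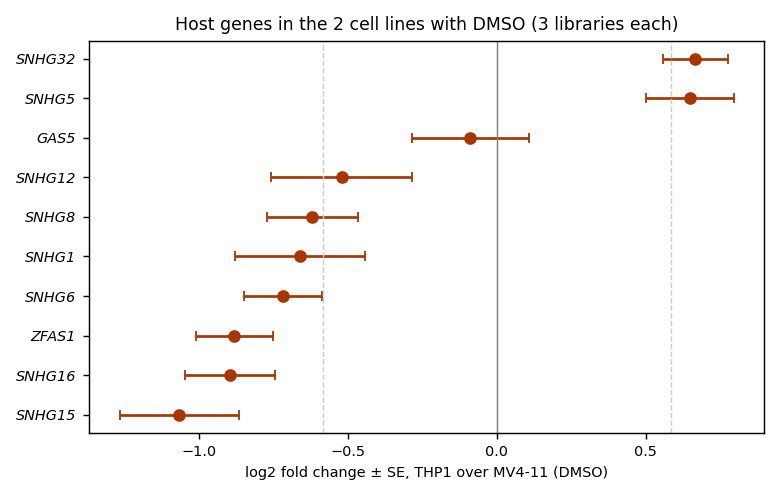
Points give the log2 fold change of THP1 over MV4-11 with DMSO for each host gene, bars the SE, and dashed lines the threshold of a 1.5-fold change on either side of 0. SNHG32 and SNHG5 lie to the right, GAS5 near 0 and the other genes to the left, down to -1.07 for SNHG15.

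The antisense and neighbouring genes matter for reading these levels, because the library kit (TruSeq RNA v2) does not mark strand, so reads of a host and of a gene on the opposite strand cannot be told apart where their exons overlap. Most of SNHG8 overlaps PRSS12, which runs opposite to it and was at 0.298 to 0.532 TPM in MV4-11 but at 31.3 to 55.2 TPM in THP1. SNHG8 itself was lower in THP1. The start of ZFAS1 overlaps ZNFX1 (16.1 to 27.4 TPM over all libraries) and GAS5 overlaps ZBTB37 (8.57 to 18.4 TPM) at its start. SNHG32 overlapped no opposite gene in the annotation, but an unnamed lncRNA on its own strand spans most of it. How the counting assigned shared reads was not tested.

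In MV4-11, the description of the drug response starts with the gene named in the choice. SNHG32 read 90.0, 94.8 and 100.9 TPM with DMSO, 124.0, 111.8 and 123.7 TPM after 8 h of IACS and 162.3, 151.9 and 162.3 TPM after 24 h. As deposited, the 3 groups did not overlap, and each timepoint lay above the one before. With scaling, the 8 h libraries (104.9 to 136.8) overlapped DMSO (89.03 to 110.1), and the 24 h libraries (146.3 to 159.8) lay above both. The log2 fold change over DMSO was 0.33 ± 0.11 (SE) at 8 h and 0.73 ± 0.11 at 24 h, the latter the only one of the 10 genes beyond the fold threshold. The next was ZFAS1, at 0.46 ± 0.13.

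ZFAS1 was measured at 40.1, 35.9 and 37.1 TPM with DMSO, 40.7, 41.8 and 56.4 TPM at 8 h and 52.3, 50.1 and 54.4 TPM at 24 h. Both timepoints were above DMSO in every library, with 1 high library at 8 h. GAS5 read 96.7, 104.7 and 150.3 TPM at 8 h and 114.4, 107.5 and 152.7 TPM at 24 h, and its 24 h libraries were all above DMSO (log2 fold change 0.32 ± 0.18). In both groups the third library stood well above the others.

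SNHG15 reached 43.9, 41.5 and 44.2 TPM at 24 h (0.30 ± 0.12) and SNHG6 reached 371.8, 345.4 and 366.3 TPM (0.24 ± 0.12), each above all DMSO libraries. SNHG8 did so by a narrow margin, with 37.0, 35.7 and 44.6 TPM (0.18 ± 0.13). SNHG1 (0.18 ± 0.12), SNHG16 (0.08 ± 0.15), SNHG5 (0.04 ± 0.15) and SNHG12 (0.04 ± 0.15) overlapped their DMSO libraries. At 24 h, 6 of the 10 genes lay above DMSO without overlap, where 19.4% of all 13542 genes tested did, and at 8 h 2 did (7.13%). With scaling the 24 h count was 3, SNHG15, SNHG32 and ZFAS1, against 12.2% of all genes, and GAS5, SNHG6 and SNHG8 overlapped DMSO. The median of the 10 was 0.21 at 24 h and 0.11 at 8 h, against 0.08 and 0.06 over all genes. Calls were made for 0.0886% of all genes at 24 h and 0.0148% at 8 h. After median-of-ratios scaling, the 24 h values were 0.64 ± 0.11 for SNHG32 and 0.38 ± 0.07 for ZFAS1, and SNHG5, SNHG12 and SNHG16 were at -0.04, -0.05 and -0.01. The third 8 h library had the lowest share of the 5 abundant noncoding RNAs (39.6%), and the third 24 h library the next lowest (42.9%).

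THP1 was not used in the choice, so its drug response was tested. At 8 h of IACS none of the 10 genes was called by limma, where 0.0144% of 13928 genes tested were, and 0 had an unadjusted p under 0.05. The log2 fold changes over DMSO ran from -0.49 ± 0.26 (SE) for SNHG1 to -0.02 ± 0.13 for SNHG32. The median of the 10 was -0.10 and that of all genes -0.12. With scaling, which moved the median of all genes to 0.0002, the 10 genes had a median of 0.03, and 6 were above 0. SNHG32 read 159.4, 157.1 and 134.6 TPM at 8 h, close to its DMSO values as deposited (limma adjusted p 0.981). With scaling it was at 168.5, 135.5 and 161.1, against 135.3, 143.6 and 147.3 with DMSO (log2 fold change 0.12 ± 0.10, limma adjusted p 0.846). ZFAS1 was at 18.3, 21.2 and 18.3 TPM, within its DMSO range or just under it (log2 fold change -0.05 ± 0.14, 0.07 ± 0.08 with scaling, limma adjusted p 0.941 and 0.902).

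SNHG1 and SNHG12 had the lowest values at 8 h. SNHG1 read 45.8, 67.2 and 37.0 TPM and overlapped its DMSO libraries, as did SNHG12 with 12.3, 19.0 and 11.8 TPM (log2 fold change -0.48 ± 0.27). Relative to all genes, 1.67% of genes had a lower value than SNHG1 and 1.85% a lower value than SNHG12, but the limma adjusted p was 0.941 for each.

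After 24 h in THP1, SNHG32 and ZFAS1 had the highest values of the 10 genes, as deposited and with scaling. SNHG32 read 200.3, 198.3 and 186.8 TPM, against 162.5, 159.5 and 134.4 TPM with DMSO. Every 24 h library was above every DMSO library, and above every 8 h library. The log2 fold change was 0.36 ± 0.13 (SE), and 97.7% of all genes had a lower one, but the limma adjusted p was 0.506 (0.0154 unadjusted). ZFAS1 read 25.6, 26.0 and 21.7 TPM, against 22.1, 19.3 and 18.7 TPM with DMSO, and the third 24 h library lay below the first DMSO library. Its log2 fold change was 0.27 ± 0.14, above that of 95.8% of all genes (limma adjusted p 0.604).

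None of the 10 genes was called by limma at 24 h, with 0.0431% of all genes called and 1 of the 10, SNHG32, at an unadjusted p under 0.05. By Kruskal-Wallis with Dunn's test 0 were called as well. By limma voom on the recovered reads SNHG32 (log2 fold change 0.50, adjusted p 0.022) and ZFAS1 (0.42, adjusted p 0.0255) passed the p threshold, as 2.22% of all genes did with a higher value, but both were under 1.5-fold and 0 were called. As deposited, SNHG32 was the only one above DMSO without overlap, where 3.32% of all genes were, and 0 of the 10 lay below it without overlap, where 10.2% of all genes did. With scaling 3 lay above DMSO, SNHG32, ZFAS1 and SNHG6, against 13% of all genes. The median of the 10 was -0.10 (0.03 with scaling) and that of all genes -0.12 (0.003 with scaling).

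By the rule given with the processing, the replicate numbers paired the DMSO and 24 h libraries of THP1, but not DMSO and 8 h. The block used below was fitted to all 9 THP1 libraries, so the 8 h libraries entered it too. Differences between DMSO and 24 h within a number were steadier. For SNHG32 they were 0.30, 0.31 and 0.47 on the log2 scale, and for ZFAS1 0.20, 0.41 and 0.20. Once the replicate number entered as a block, the limma adjusted p was 0.0156 for SNHG32 and 0.0834 for ZFAS1, where 1.11% of all genes had an adjusted p under 0.05 and a higher value. With scaling alone it was 0.0361 and 0.0367 (1.5% of all genes), at log2 fold changes of 0.50 ± 0.10 and 0.40 ± 0.08. With both, it was 0.0104 and 0.00686, and SNHG6 passed too at 0.20 (limma adjusted p 0.0424), where 6.92% of all genes did. In each of these the change was under 1.5-fold, so that no call was made. With replicate 3 of every group left out, and neither block nor scaling, the limma adjusted p was 0.226 for SNHG32 and 0.365 for ZFAS1. The like limma fit of all libraries gave an adjusted p of 0.506 and 0.604. The block and the scaling were not run without replicate 3.

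**Figure D3:**
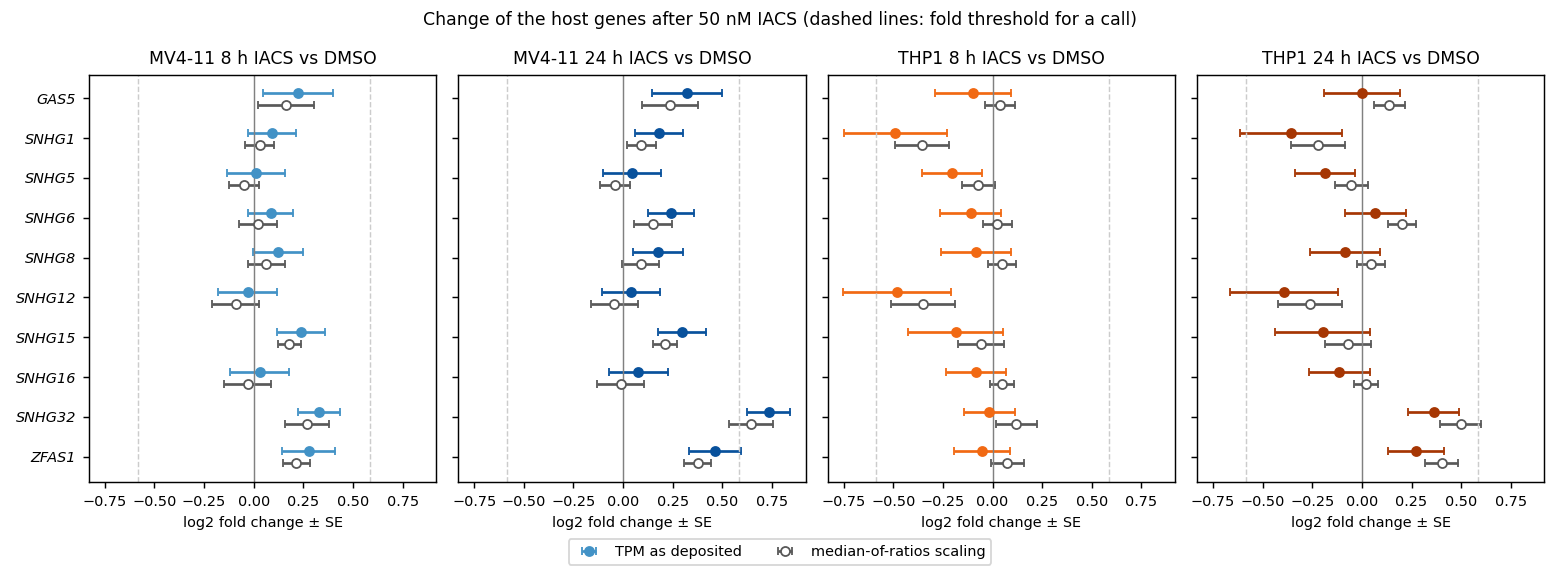
For each host gene the filled point gives the log2 fold change over DMSO from the TPM as deposited and the open point the same after median-of-ratios scaling, with SE bars and dashed lines at a 1.5-fold change on either side of 0. SNHG32 and ZFAS1 are the rightmost genes in the 24 h panels of both cell lines, at 0.73 and 0.46 in MV4-11 and 0.36 and 0.27 in THP1 as deposited. In THP1 the open points lie to the right of the filled ones for all 10 genes.

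As deposited, the other 8 genes did not share this pattern in THP1. With scaling SNHG6 lay above DMSO without overlap too (log2 fold change 0.20 ± 0.07). SNHG6 was at 198.9, 207.8 and 176.2 TPM at 24 h (log2 fold change 0.07 ± 0.15) and GAS5 at 100.3, 101.4 and 78.2 TPM (0.00 ± 0.19). Both overlapped DMSO. SNHG1 read 58.9, 63.9 and 40.1 TPM (-0.36 ± 0.26) and SNHG12 15.4, 18.7 and 11.8 TPM (-0.39 ± 0.27), with each library of a number below the DMSO library of that number. SNHG5 (-0.19 ± 0.15), SNHG15 (-0.20 ± 0.24), SNHG16 (-0.11 ± 0.15) and SNHG8 (-0.09 ± 0.18) overlapped DMSO. Without block or scaling, the limma adjusted p of these 8 genes ran from 0.667 to 0.998. With the block it was 0.0817 for SNHG1 and 0.114 for SNHG12, both lower in value, near the 0.0834 of ZFAS1. With block and scaling together it was 0.0884 for SNHG1 and 0.196 for SNHG12, against 0.00686 for ZFAS1. Among the 4 genes with a TOP start, SNHG32 and ZFAS1 were thus above 0 and SNHG5 and SNHG12 below it, in value.

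The timepoints of IACS in THP1 were also compared with each other. SNHG32 was higher at 24 h than at 8 h in every library (log2 fold change 0.38 ± 0.13, limma adjusted p 0.791) and so was ZFAS1 (0.33 ± 0.14, limma adjusted p 0.967), 2 of 10 genes without overlap against 5.11% of all genes. With scaling SNHG6 lay apart too, which made 3 of 10 against 12.4% of all genes. None of the 10 was called by limma (0.00718% of all genes), and these 2 had an unadjusted p under 0.05. The replicate numbers paired these libraries as well, and with the block the limma adjusted p was 0.0315 for SNHG32 and 0.0947 for ZFAS1, where 0.854% of all genes passed with a higher value. With scaling alone neither passed (limma adjusted p 0.0791 and 0.0681, with 0.893% of all genes passing). With block and scaling together it was 0.0252 and 0.0113 (4.56% of all genes). The other 8 genes were between -0.03 for SNHG16 and 0.18 for SNHG6.

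A measure free of the library's total is the share of a gene in the summed TPM of the 10. SNHG32 held 20.7%, 23.5% and 23.5% of the sum in the THP1 DMSO libraries and 27.4%, 26.5% and 30.3% at 24 h. All 24 h shares were higher, by 5.48 percentage points on average (two-sided exact permutation test p = 0.1, the smallest that 3 against 3 libraries allow, so that 0.05 cannot be reached). ZFAS1 held 2.80%, 2.85% and 3.27% with DMSO and 3.50%, 3.48% and 3.51% at 24 h, again without overlap (exact permutation p = 0.1). SNHG1 held 11.3%, 10.8% and 8.66% with DMSO and 8.06%, 8.54% and 6.49% at 24 h. SNHG16, SNHG5 and SNHG1 held less at 24 h in every library (exact permutation p = 0.1 for each). Since shares add to a fixed sum, a higher share of SNHG32 lowers the others. In MV4-11, described only, SNHG32 held 9.97%, 11.1% and 11.3% with DMSO and 15.2%, 15.1% and 14.1% at 24 h.

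**Figure D4:**
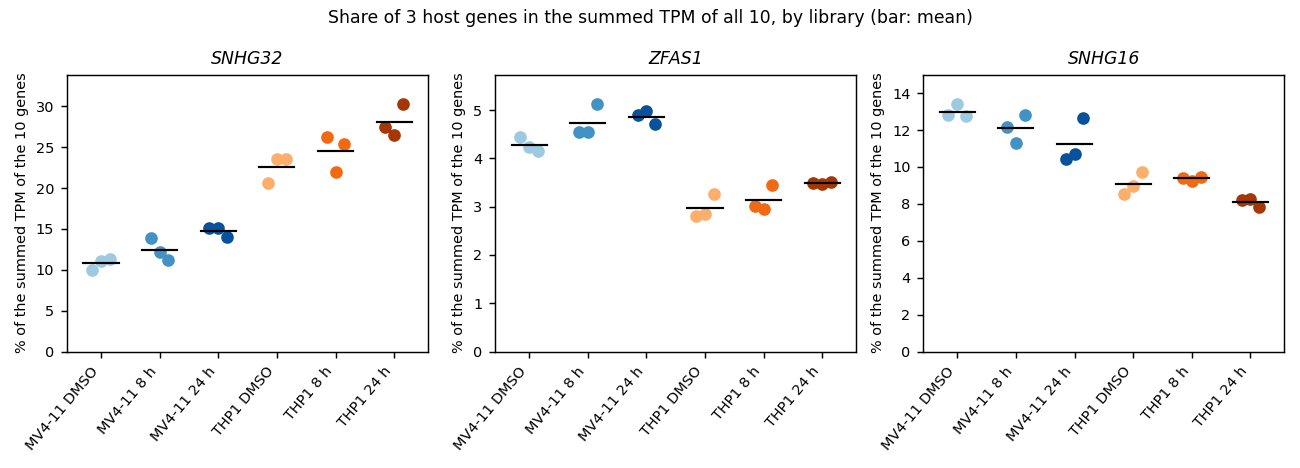
Points give the percent of the summed TPM of the 10 host genes held by SNHG32, ZFAS1 and SNHG16 in each library, and bars the mean of 3 libraries. In THP1 the SNHG32 share was 20.7% to 23.5% with DMSO and 26.5% to 30.3% after 24 h, while the SNHG16 share was lower at 24 h in both cell lines.

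Library by library, the genes of THP1 followed the scale of the library to different degrees. Over the 9 THP1 libraries, 8 of the 10 genes had a Pearson r with the median-of-ratios size factor between 0.82 (SNHG6) and 0.99 (SNHG15), with Spearman rho of 0.82 and 0.97 for these ends. For SNHG32 r was 0.24 (rho 0.18) and for ZFAS1 0.40 (rho 0.38). The size factor is computed from the same libraries, so this is a description. In MV4-11 r ranged from 0.32 for SNHG32 to 0.91 for SNHG5.

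Most snoRNA entries of these hosts were listed at 0. The annotation places 23 snoRNA entries of the table inside the 10 genes on the same strand, and 18 of them were listed at 0 in all 18 libraries. Of the 18 that lie in an annotated exon of the host, 17 were listed at 0, and of the 5 that lie only in introns 1 was. The highest value was 6.78 TPM for SNORD48 in SNHG32, which was above 0 in 8 libraries. SNORD99 in SNHG12 reached 4.44 TPM and was above 0 in 10. SNORD12B and SNORD12C in ZFAS1 reached 1.26 and 1.07 TPM, each above 0 in 2 libraries. In THP1, 2 hosted snoRNAs averaged 1 TPM or more and were tested, SNORD48 and SNORD99, and limma called neither. SNORD48 had log2 fold changes over DMSO of -0.96 ± 0.44 at 8 h and 1.05 ± 0.44 at 24 h (limma adjusted p 0.941 and 0.552). The others were too low to be tested, and snoRNAs of GAS5 were not analysed here.

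Genes around these RNAs were read in the same fits. In THP1 at 24 h, limma called 0 of the 17 further noncoding hosts, 0 of 18 protein-coding hosts, 0 of 20 protein-coding TOP mRNAs, 0 of 78 ribosomal protein mRNAs, 0 of 20 nonsense-mediated decay factors, 0 of 11 known decay targets, 0 of 12 regulators of TOP translation and 0 of 12 snoRNP proteins. At 8 h the count was 0 in each as well. With the block at 24 h, SNHG22 among the noncoding hosts, NCL, the decay factor MAGOH, RPS16, RPS26 and RPLP1, and the snoRNP proteins GAR1 and NHP2 were called lower, and none of these lists had a gene called higher. In that fit 1.73% of all genes were called lower. With scaling alone, limma called GAR1 lower and the decay target ATF4 higher, where 0.713% of all genes were called. With block and scaling together, SNHG22, NCL, RPS16 and GAR1 were called lower and ATF4 higher (1.31% of all genes). MAGOH, RPS26, RPLP1 and NHP2 were then under 1.5-fold.

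The snoRNP proteins, which bind snoRNAs and guide their maturation, were below DMSO in value. All 12 had a log2 fold change under 0 at 24 h in THP1, with a median of -0.39 (-0.26 with scaling, where 11 were under 0), while 72.8% of all genes were under 0 as deposited and 49.4% with scaling. NHP2, of the box H/ACA particle, was at -0.62 ± 0.18 (limma adjusted p 0.433) and GAR1, of the same particle, at -0.75 ± 0.23 (limma adjusted p 0.454). In MV4-11 at 24 h all 12 were also under 0, with a median of -0.22, against 34% of all genes. The ribosomal protein mRNAs had a median of 0.02 in THP1 and 0.14 in MV4-11 at 24 h, with 47 and 75 of 78 above 0. Scaling turned this order, to 0.16 in THP1 and 0.05 in MV4-11, with 69 and 57 above 0. The further noncoding hosts had medians of -0.14 and 0.27 (-0.03 and 0.18 with scaling). EEF2, the translation elongation factor, had the highest value of the protein-coding TOP mRNAs in both cell lines (0.31 ± 0.11 and 0.32 ± 0.15). In THP1 its limma adjusted p was 0.506 as deposited, 0.0336 with the block, 0.0944 with scaling and 0.0282 with both. Its log2 fold change was 0.44 with scaling, so that it stayed under 1.5-fold and was not called. As for SNHG32, no p is given for MV4-11.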

How the data were processed

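RNA from 18 libraries of MV4-11 and THP1 cells was analysed. As the study's methods state, the authors isolated total RNA with an on-column DNase step, prepared TruSeq RNA v2 libraries, sequenced 100-bp paired-end reads, trimmed them, aligned them to GRCh38 and deposited TPM per gene symbol from CLC Genomics Workbench. The annotation release is not given in the sources used here. Genes were located in GENCODE release 44, and promoter entries of chromosome 8 were not read. Some genes examined are not reported here.

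log2(TPM + 1) was tested with limma (v3.58.1, R v4.3.3; lmFit and eBayes with a variance trend) for genes averaging 1 TPM or more, with the 9 libraries of a cell line in 1 fit, or all 18 for the comparison of cell lines. Adjustment ran over all genes tested. The limma p-values rest on the spread between libraries within groups, pooled over all groups of a fit and moderated across genes. With the block they rest on the spread left after the replicate numbers. The fit was tested on simulated data with 200 changed genes. Noise was drawn independently for each gene and library, so shifts of a whole library were left out. The changed genes were not taken from the lowest levels. At a log2 change of 1 it recovered 77% of them for THP1 at 8 h, 67% at 24 h and 95% between cell lines. Of 14915 genes averaging 1 TPM or more in a cell line, 14897 (99.9%) had TPM that were whole multiples of 1 read (tolerance 0.02). Gene lengths came from the annotation for 7786 of these and from a search for 7111. The recovered reads of these genes (median 22200000 per library) stand for the depth. They were also used by limma's voom, with library sizes scaled by the median of ratios.

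Replicate numbers were taken to pair libraries where the deviations of all 3 pairs from their group means correlated above 0.1 across genes. This held for THP1 DMSO and 24 h (0.146, 0.157 and 0.324) and for THP1 8 h and 24 h (0.183, 0.277 and 0.357). The genes and lists were chosen with earlier results of these data known. Named are the 10 host genes, hosted snoRNAs, genes of the lists called in THP1 and the ends of each list; NOP56, NHP2 and genes called only with the block were picked after their values were seen. Alternatives were a pseudocount of 0.1, no filter, a filter at 10 TPM, TPM without the 5 noncoding RNAs, median-of-ratios scaling, no variance trend, the replicate block with and without scaling, unadjusted p, Kruskal-Wallis with Dunn's test as in the study, and each library left out. The 2 added after seeing the data were voom and replicate 3 of every group left out.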

Additional observations from a re-analysis of the deposited data

How the results depend on the processing

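The comparison of the cell lines called 7 of 9 host genes, 2 by Kruskal-Wallis with Dunn's test at an unadjusted p and 4 with replicate 3 of every group left out, and 5 to 7 with 1 library left out. SNHG1 lost its call without MV4-11 DMSO replicate 1 or THP1 DMSO replicate 3, SNHG5 without THP1 DMSO replicate 1 and SNHG8 without THP1 DMSO replicate 3, and SNHG8 was under 1.5-fold without the 5 noncoding RNAs (-0.5606), while SNHG12 gained one without THP1 DMSO replicate 1. The log2 fold change of SNHG32 in MV4-11 at 24 h, described with no test, was 0.69 to 0.77 with each of the 9 libraries left out in turn. Calls in MV4-11 with the drug were not counted under any alternative, since these values entered the choice. ZFAS1 in THP1 at 8 h turned from -0.05 to 0.0746 with median-of-ratios scaling, with or without the block, and to 0.0793 by voom. In THP1 0 host genes were called under every alternative run. The replicate block moved no member across both thresholds: with it 7 of 9 were called between the cell lines and 0 in THP1, and only the adjusted p given in the text passed 0.05 in THP1. With 1 library left out, the median of the 10 was -0.24 to -0.001 in THP1 at 8 h, -0.17 to 0.03 at 24 h, -0.04 to 0.28 for 24 h against 8 h, -0.79 to -0.48 between cell lines and, in MV4-11, 0.03 to 0.18 at 8 h and 0.18 to 0.25 at 24 h. With 3 libraries a group, 77% (8 h) and 67% (24 h) of simulated log2 changes of 1 were recovered in THP1. Smaller changes, such as those of the host genes in THP1, were not simulated. Whether depth, or the assignment of reads shared with the host, bears on the snoRNAs listed at 0 was not tested.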

Other observations

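Genes most like the host genes were sought among genes averaging 5 TPM or more, by Pearson correlation with the mean standardized profile of the 10 over the 9 libraries of a cell line. This describes the libraries and was not tested, since all genes of a library share its depth and scale. In MV4-11 the closest of 9786 genes were SNHG29 (r = 0.98), itself a noncoding snoRNA host, ACVR1B (0.98), an activin receptor, and LINC01311 (0.98). In THP1 the closest of 9724 genes were STRN3 (r = 0.9956), UBE2D3 (0.9932), a ubiquitin-conjugating enzyme, and AC093297.2 (0.9931).

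Among known targets of nonsense-mediated decay, ATF4, the transcription factor of the integrated stress response, had the highest log2 fold change at 24 h of IACS in both cell lines, 0.54 ± 0.24 (SE) in THP1 and 0.49 ± 0.12 in MV4-11. In THP1 its limma adjusted p was 0.563 as deposited. With median-of-ratios scaling its log2 fold change in THP1 was 0.68 and it was called higher (limma adjusted p 0.0333, and 0.00798 with the block as well). The other end of that list in THP1 was SRSF7, a splicing factor, at -0.34 ± 0.19 (limma adjusted p 0.613).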
